A study of Homo sapiens with 6 samples.

Results

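The genes described here encode the proteins of the mitochondrial ribosome. They were taken as the protein-coding genes of GENCODE release 29 whose symbol is MRPL or MRPS followed by a digit. There are 78 of them among 19948 protein-coding genes with at least 1 transcript in the tables, and all 78 passed the filter on low counts that left 15204 genes for testing. The cells were Rh30, an established line from an alveolar rhabdomyosarcoma, positive for the PAX3-FOXO1 fusion. The study compared 3 control libraries with 3 libraries from cells with a knockdown of the RNA helicase gene DDX5, labelled siDDX5. Both groups share the line and the fusion, and the labels give no time after the knockdown, no silencing sequence and no account of what the control cells received. The labels call the libraries of a group biological replicates without saying how they were separated, so the p-values below measure the spread between these samples of 1 line, which may be in part technical.

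The mitochondrial ribosome is a separate translation machine inside the mitochondrion. Its RNAs are encoded by mitochondrial DNA, but all of its proteins are encoded in the nucleus, made in the cytosol and imported. It makes only the few mitochondrially encoded subunits of the respiratory chain and the ATP synthase, so tissues with high respiration such as muscle depend on it. The small subunit decodes the messenger RNA and the large subunit joins the amino acids. Part of the proteins have counterparts in bacterial ribosomes, and the others were added during the evolution of mitochondria.

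By these roles, 26 of the genes belong to the small subunit and 51 to the large subunit. MRPS18A and MRPS30 carry small-subunit names, but their proteins sit in the large subunit and were counted there. MRPS36, whose protein is known as a component of the alpha-ketoglutarate dehydrogenase complex, was kept as a member by its symbol and placed in neither subunit. Of the remaining 77 genes, 46 encode proteins with bacterial counterparts and 31 encode proteins particular to mitochondria. The 78 genes lie on 21 chromosomes.

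Promoter sequences, from RefSeq on GRCh38.p14, were held for 69 of the 78 genes, each with 250 bases before and 50 bases after the annotated start. Words bound by 3 factors known for housekeeping and mitochondrial genes were searched on both strands. The words were CCGGAAG for the ETS family, to which GABPA belongs, GCGCATGCG for NRF1 and AAGATGGCG for YY1, and none of them contains another. The ETS word stood in 29 of the 69 promoters (42%), against 10.7% of all 27305 promoters in the table and 18.2% of the 10986 that belong to genes tested here. The YY1 word stood in 13 (18.8%), against 1.85% of all promoters and 3.68% of those of tested genes. The NRF1 word stood in 3 (4.35%), against 2.1% and 3.51%. At least 1 of the 3 words was found in 39 promoters (56.5%, against 13.6% and 23.5%).

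**Figure D1:**
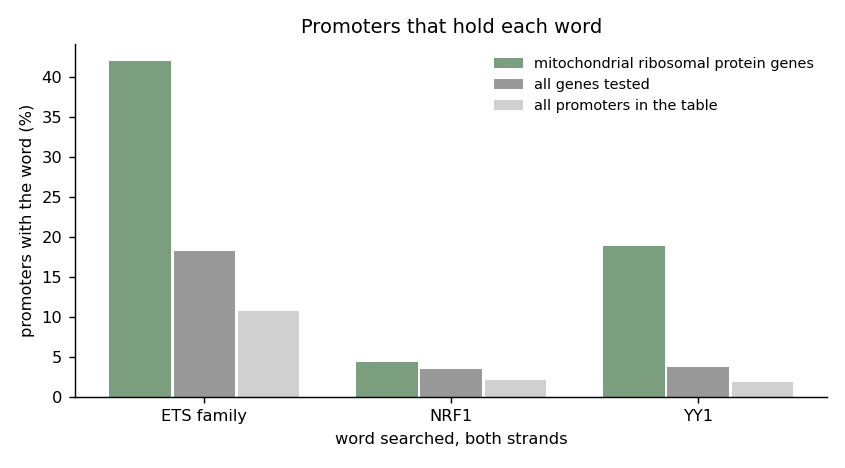
Share of promoters, in percent, that hold the ETS, NRF1 or YY1 word on either strand, for the mitochondrial ribosomal protein genes, the genes tested and all promoters in the table. The ETS word stood in 42% of the first group against 10.7% of all promoters, and the YY1 word in 18.8% against 1.85%.

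The words were placed close to the start. Of 39 ETS sites in these promoters, 33 lay within 100 bases of it, with a median position of -22. The 14 YY1 sites had a median position of 9.5, with 10 of them downstream of the start, and 12 were read on the gene's own strand. Such matches describe letters only. The medians of the log2 fold changes in siDDX5 cells were 0.133 for the 29 genes with the ETS word and 0.076 for the 40 without it, and 0.082 with and 0.117 without the YY1 word.

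The next 5 promoters show windows with and without these words, in lower case with the searched words in capitals. MRPL24 (chr1:156741039-156741338, minus strand) and MRPS6 (chr21:34073328-34073627, plus strand) are the members with the lowest fold changes in siDDX5 cells, and neither window holds any of the 3 words. MRPS23 (chr17:57849995-57850294, minus strand) is among the members with the highest fold changes and carries the ETS word at position -14. The window of MRPS9, the member with the highest fold change, also holds 0 of these words. MRPS18A (chr6:43687742-43688041, minus strand) carries the ETS word at -31 and the YY1 word at 10. MRPL22 (chr5:154940823-154941122, plus strand) carries the NRF1 word at -24 and the YY1 word at 36.
MRPL24: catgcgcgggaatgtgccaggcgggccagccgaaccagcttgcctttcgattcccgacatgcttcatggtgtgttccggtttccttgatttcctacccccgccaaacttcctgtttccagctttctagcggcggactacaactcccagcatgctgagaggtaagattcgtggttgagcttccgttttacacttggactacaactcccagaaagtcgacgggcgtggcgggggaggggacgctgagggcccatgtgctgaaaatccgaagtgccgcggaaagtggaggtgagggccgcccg
MRPS6: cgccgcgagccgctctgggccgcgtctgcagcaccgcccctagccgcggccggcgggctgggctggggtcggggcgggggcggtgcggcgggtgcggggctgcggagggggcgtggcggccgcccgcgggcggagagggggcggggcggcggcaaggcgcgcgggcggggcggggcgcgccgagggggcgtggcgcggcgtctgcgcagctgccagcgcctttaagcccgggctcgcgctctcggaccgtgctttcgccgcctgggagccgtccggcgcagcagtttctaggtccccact
MRPS23: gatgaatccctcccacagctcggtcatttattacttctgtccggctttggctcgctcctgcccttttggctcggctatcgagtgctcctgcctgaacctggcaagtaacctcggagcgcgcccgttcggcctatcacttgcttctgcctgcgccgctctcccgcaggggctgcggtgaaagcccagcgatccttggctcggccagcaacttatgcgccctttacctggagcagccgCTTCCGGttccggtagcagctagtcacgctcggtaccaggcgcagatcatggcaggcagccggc
MRPS18A: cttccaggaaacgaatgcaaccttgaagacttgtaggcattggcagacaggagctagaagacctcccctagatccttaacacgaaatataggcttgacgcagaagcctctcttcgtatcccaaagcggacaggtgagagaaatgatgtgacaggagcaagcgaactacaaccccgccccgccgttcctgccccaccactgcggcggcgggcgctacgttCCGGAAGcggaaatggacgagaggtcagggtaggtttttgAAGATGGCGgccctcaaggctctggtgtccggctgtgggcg
MRPL22: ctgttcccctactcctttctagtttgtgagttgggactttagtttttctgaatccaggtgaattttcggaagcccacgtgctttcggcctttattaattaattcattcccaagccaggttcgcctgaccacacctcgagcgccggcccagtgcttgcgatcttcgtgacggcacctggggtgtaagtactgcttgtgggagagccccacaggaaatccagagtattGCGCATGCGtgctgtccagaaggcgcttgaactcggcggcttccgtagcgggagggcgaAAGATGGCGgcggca

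The windows also differ in base composition. That of MRPS6 is 82% G and C, against 58.7% for MRPL24, 62.3% for MRPS23, 57% for MRPS18A and 55% for MRPL22.

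The libraries held 18202402 to 26156858 estimated counts, and the 3 siDDX5 libraries were the shallowest. A count of 3 equals 0.115 to 0.165 CPM (counts scaled to library size). The lowest count of any member in any library was 104, so all 78 genes lay far above this floor. DDX5 itself was lower in all 3 siDDX5 libraries (397.1 to 551.3 CPM) than in all 3 control libraries (1141 to 1438 CPM), and differed by -1.44 on the log2 scale (SE 0.15, adjusted p = 0.0115 in edgeR). The muscle genes MYOD1, MYOG and DES were at 109.5 to 162.9, 66.2 to 170.6 and 400.6 to 588.7 TPM, and EPCAM, an epithelial marker, was at 0.132 to 0.341 TPM. PTPRC, a marker of blood cells, was at 0.714 to 3.43 TPM, and PECAM1, an endothelial marker, at 3.97 to 6.88 TPM.

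Levels between genes were compared in TPM, the deposited abundance that is corrected for transcript length. Over all 6 libraries the 78 genes had mean levels from 10.8 to 384 TPM, a 35.8-fold range, with a median of 58.6 TPM and quartiles of 40.3 and 82 TPM. The median of all genes tested was 17.4 TPM, and 77 of the 78 members lay above it. Of the 78 genes, 16 were above 100 TPM.

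MRPL33 and MRPL51 had the highest levels. MRPL33, a small protein with a bacterial counterpart, was at 357 ± 23.4 TPM in control and 412 ± 52.6 TPM in siDDX5 cells (SD, n = 3 each). MRPL51, which is particular to mitochondria, was at 374 ± 28.4 and 391 ± 51.2 TPM, so the order of these genes was within their spread. MRPS7, a head protein of the small subunit, followed with 151 ± 16.6 and 175 ± 13.9 TPM, and MRPL35 with 156 ± 6.28 and 159 ± 9.94 TPM. These also did not differ from each other beyond their spread.

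The lowest level was that of MRPL57, at 11.4 ± 2.4 TPM in control and 10.2 ± 2.36 TPM in siDDX5 cells (SD, n = 3 each). MRPS14, MRPS12 and MRPS26 came next. MRPS14 had 21.2 ± 0.848 and 19.4 ± 1.59 TPM, MRPS12 had 21.2 ± 5.1 and 21.3 ± 5.47 TPM, and MRPS26 had 21 ± 2.82 and 23.2 ± 6.68 TPM. MRPS12 encodes a protein of the decoding centre, and its level did not differ from those of MRPS14 and MRPS26 beyond the spread.

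Summed over the 26 small-subunit genes, the level was 1659, 1742 and 1540 TPM in control replicates 1, 2 and 3, and 1685, 1865 and 1687 TPM in siDDX5 replicates 1, 2 and 3. The 51 large-subunit genes summed to 4012, 4025 and 3762 TPM in the control and 3962, 4428 and 4020 TPM in the siDDX5 libraries. Both sums were highest in siDDX5 replicate 2, and the groups overlapped in both. The ratio of the small to the large sum was 0.414, 0.433 and 0.41 in the control and 0.425, 0.421 and 0.42 in the siDDX5 libraries. This ratio of summed RNA levels thus stayed within the control range. The subunits themselves were not measured. All 78 genes together gave 5616 ± 245 TPM in control and 5927 ± 359 TPM in siDDX5 cells (SD, n = 3 each).

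**Figure D2:**
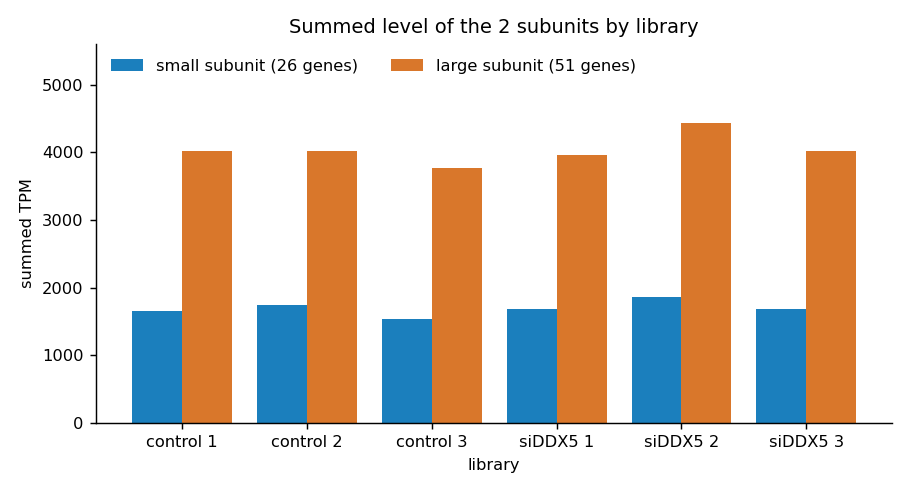
Summed TPM of the 26 small-subunit and 51 large-subunit genes (bars) in each of the 6 libraries. The large-subunit sums run from 3762 to 4428 TPM and the small-subunit sums from 1540 to 1865 TPM, and siDDX5 replicate 2 is highest for both.

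The main comparison asked which of these genes differed between siDDX5 and control cells. MRPL24 and MRPS6 stood below all others, and the remaining 76 genes had log2 fold changes between -0.12 and 0.37. In edgeR's quasi-likelihood test 0 of the 78 genes had an adjusted p under 0.05, where 0.171% of the 15204 genes tested did. At an unadjusted p under 0.05, 7 members were higher and 2 were lower, against 5.29% and 6% of all genes tested. With the replicate number as a block 2 of the 78 passed, MRPL24 and MRPS6, both lower, against 2.48% of all genes. The same 2 passed in the DESeq2 Wald test, against 2.15% of all genes. Both fits are given because same-numbered libraries shared part of their deviations over all genes.

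**Figure D3:**
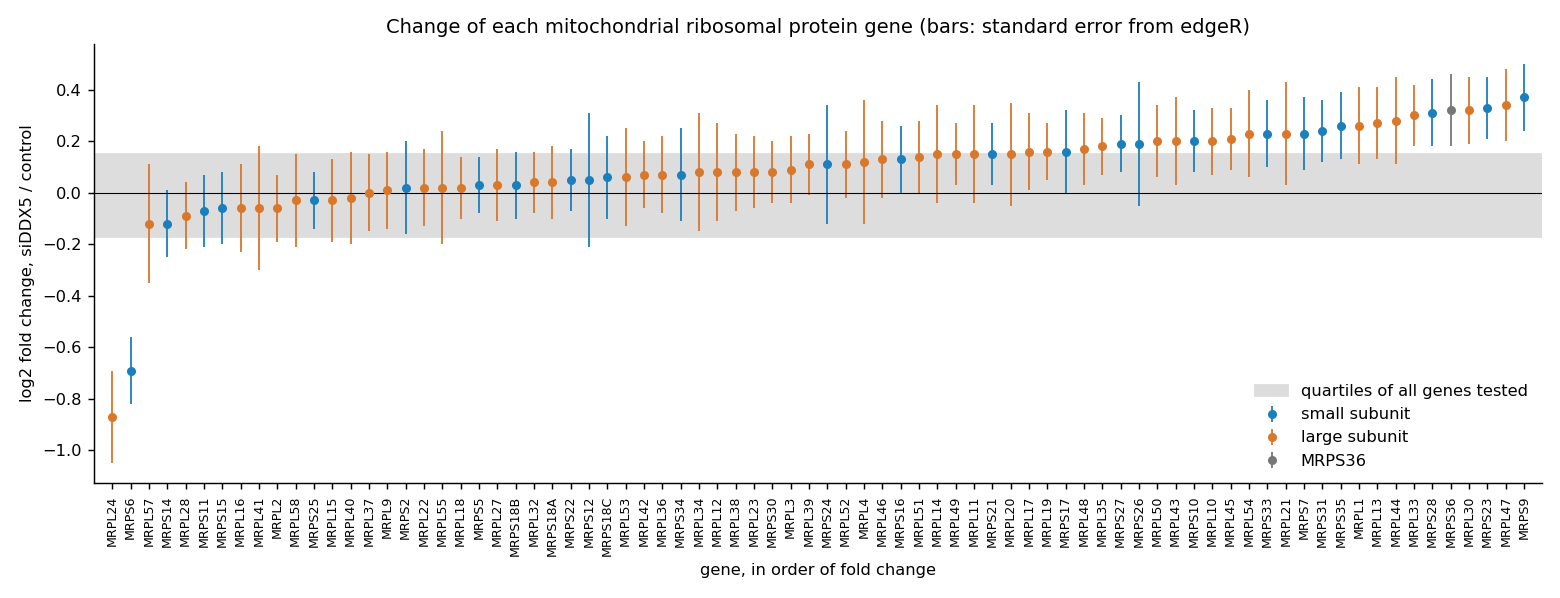
Log2 fold change of each of the 78 genes between siDDX5 and control cells (points) with its standard error (bars). The standard errors were derived from the edgeR test, and the genes are in order and coloured by subunit. The grey band spans the quartiles of all genes tested, from -0.17 to 0.15, and MRPL24 (-0.87) and MRPS6 (-0.69) lie apart from the other 76 genes, which run from -0.12 to 0.37.

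MRPL24 (ENSG00000143314.12, chromosome 1, 156737303 to 156741590 of GRCh38, minus strand) encodes a large-subunit protein with a bacterial counterpart that is known there as an early assembly protein. Control replicates 1, 2 and 3 had 46.96, 42.4 and 34.6 CPM, and siDDX5 replicates 1, 2 and 3 had 19.2, 28.3 and 20.3 CPM. The highest siDDX5 library lay below the lowest control library. Its log2 fold change was -0.87 (SE 0.18), a 1.83-fold lower level, with an edgeR adjusted p of 0.0896, and of 0.0154 with the block. Within the replicate numbers the log2 ratio was -1.27, -0.57 and -0.75.

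Most of the MRPL24 counts lay on a pair of protein-coding transcripts of 883 bases each. ENST00000361531.6 was at 41.4 ± 7.41 TPM in control and 21.6 ± 3.17 TPM in siDDX5 cells (SD, n = 3 each). ENST00000368211.8 was at 33.2 ± 4.74 and 15.9 ± 4.98 TPM. Their shares of the gene's counts were 52.1% ± 3.78 and 42.5% ± 2.71 in control, and 51.3% ± 8.1 and 37.5% ± 6.48 in siDDX5 cells, so both levels were lower and the division between them overlapped between the groups. Neither neighbouring gene passed the test of gene levels. HDGF, next to it on the same strand, had a log2 fold change of 0.06 (edgeR adjusted p = 0.892). The division of HDGF counts among its transcripts had an adjusted p of 0.072 in edgeR's diffSpliceDGE, and passed with the block (0.0106). RRNAD1, on the other side and the opposite strand, had -0.16 (edgeR adjusted p = 0.719), with all siDDX5 libraries below all control libraries.

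MRPS6 (ENSG00000243927.5, chromosome 21, 34073224 to 34143034, plus strand) encodes a small-subunit protein with a bacterial counterpart. Control replicates 1, 2 and 3 had 17.7, 17.4 and 17.1 CPM, and siDDX5 replicates 1, 2 and 3 had 10.3, 11.7 and 10.5 CPM. Replicates were close to each other in both groups, and the groups were far apart. The log2 fold change was -0.69 (SE 0.13), a 1.61-fold lower level, with an edgeR adjusted p of 0.0745, and of 0.0176 with the block. Without the replicate 3 libraries the adjusted p of edgeR with the block was 0.0722. Within the replicate numbers the log2 ratio was -0.76, -0.56 and -0.68.

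The protein-coding transcript ENST00000399312.3 held 82.9% ± 1.24 of the MRPS6 counts in control and 77.1% ± 3.32 in siDDX5 cells (SD, n = 3 each), and its level was 32.1 ± 0.408 and 18.2 ± 0.845 TPM. SLC5A3, an inositol transporter gene, lies within the MRPS6 gene on the same strand, so some reads could be assigned to either. It had 28.8, 28.8 and 49.2 CPM in control replicates 1, 2 and 3, against 32.9, 20.5 and 39.3 CPM after the knockdown. The groups overlapped, with a log2 fold change of -0.20 (edgeR adjusted p = 0.819, and 0.436 with the block). Shared positions are not particular to MRPS6. By gene span, 38 of the 78 members overlap another protein-coding gene. In 13 members the overlap is on the same strand, among them MRPL30, MRPS28 and MRPL33.

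**Figure D4:**
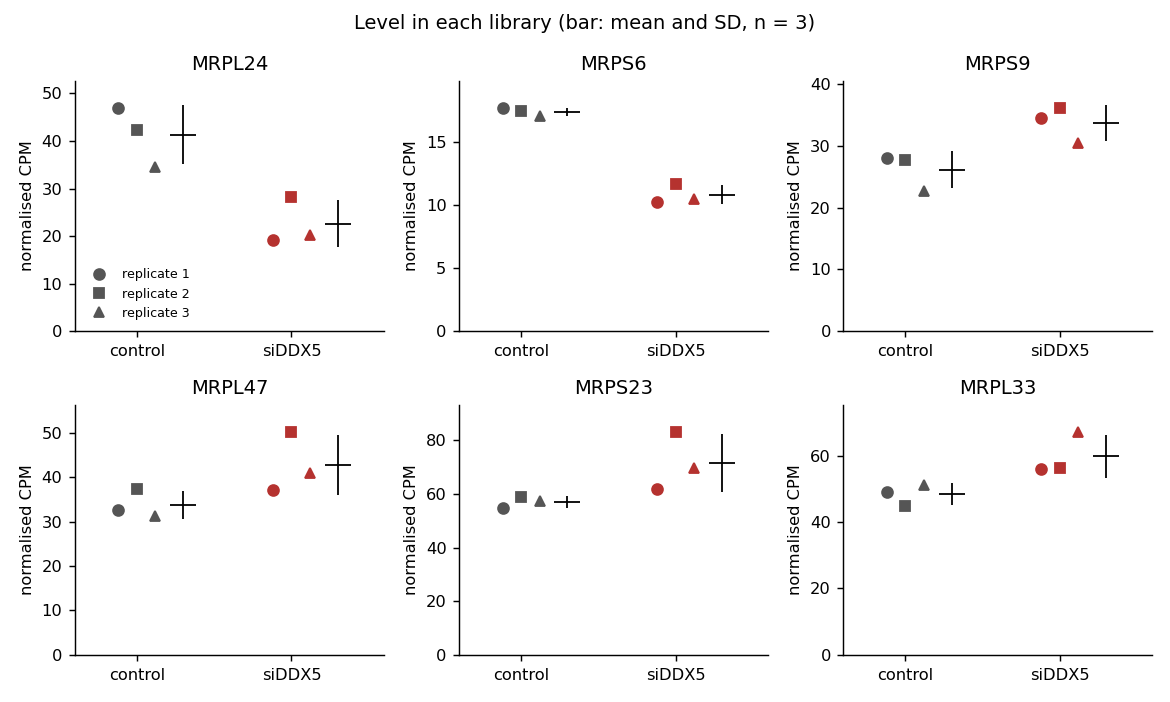
Normalised CPM of 6 genes in each library (points, shaped by replicate number) with the mean and SD of each group (bars, n = 3), on axes from 0. MRPL24 and MRPS6 are lower in every siDDX5 library than in every control library, while for MRPL47 the siDDX5 libraries (37.1 to 50.3 CPM) reach down into the control range (31.2 to 37.4 CPM).

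The other members at the low end did not pass the test in either fit. MRPS14, a head protein of the small subunit, averaged 20 ± 0.615 CPM over the control and 18.4 ± 2.06 CPM over the siDDX5 libraries (SD, n = 3 each). It differed by -0.12 on the log2 scale (SE 0.13, adjusted p = 0.773 in edgeR). MRPL57 and MRPL28 of the large subunit had -0.12 (SE 0.23) and -0.09 (SE 0.13), and MRPS11 of the small subunit had -0.07 (SE 0.14), with edgeR adjusted p values of 0.888, 0.846 and 0.883. In each of these genes the groups overlapped.

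At the high end stood MRPS9, MRPL47, MRPS23, MRPS36, MRPL30 and MRPS28, and 0 of these 6 were called with or without the block. MRPS9, a small-subunit head protein with a bacterial counterpart, was at 28.1, 27.6 and 22.6 CPM in control replicates 1, 2 and 3 and at 34.5, 36.1 and 30.4 CPM in siDDX5 replicates 1, 2 and 3. The lowest siDDX5 library exceeded the highest control library. The difference was 0.37 on the log2 scale (SE 0.13, adjusted p = 0.337 in edgeR, and 0.0813 with the block).

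MRPS23, a small-subunit protein particular to mitochondria, was at 54.6, 59.04 and 57.5 CPM in the control, against 61.8, 83.3 and 69.7 CPM in the siDDX5 libraries, again without overlap. The difference was 0.33 on the log2 scale (SE 0.12, adjusted p = 0.366 in edgeR, and 0.102 with the block). For MRPL47, the counterpart of a bacterial protein at the exit of the peptide tunnel, the value was 0.34 (SE 0.14, edgeR adjusted p = 0.406), with 1 siDDX5 library inside the control range. MRPL30 had 0.32 (SE 0.13, edgeR adjusted p = 0.409), MRPS36 had 0.32 (SE 0.14, edgeR adjusted p = 0.432) and MRPS28 had 0.31 (SE 0.13, edgeR adjusted p = 0.399). The groups overlapped for MRPL30 and not for MRPS36 and MRPS28.

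In 8 of the 78 genes (10.3%) the siDDX5 libraries were above the control libraries without overlap, against 8.85% of all genes tested. They were MRPS9, MRPS23, MRPS28, MRPS31, MRPS33, MRPS27, MRPL33 and MRPS36, of which 6 belong to the small and 1 to the large subunit. These are 23.1% of the small-subunit and 2% of the large-subunit genes, a split that was not tested. In MRPL24 and MRPS6 (2.6% of the members) all siDDX5 libraries lay below, against 9.21% of all genes. Over the 78 genes together, the share above was near that of all genes, and the share below was smaller. The value of MRPS31 is uncertain, since its pseudogenes held 34.5% of the counts summed over the gene and its pseudogenes, and reads could be split between near-identical copies. The same share was 10.9% for MRPL45 and 6.98% for MRPS17.

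Most members had small positive values. The median log2 fold change of the 78 genes was 0.109, with quartiles of 0.03 and 0.20, and 63 of them (80.8%) were above 0. Over all 15204 genes tested the median was -0.002, with quartiles of -0.17 and 0.15, and 49.6% were above 0. Small-subunit genes had a median of 0.121 and large-subunit genes 0.09. Genes with bacterial counterparts had 0.086 and those particular to mitochondria 0.114. These are descriptions of the list, for which no test was made.

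This shift followed the replicate numbers. Within replicate 1 the median log2 ratio of siDDX5 to control was -0.065, and 25 of the 78 genes were higher in siDDX5 cells. Within replicate 2 it was 0.284 with 74 genes higher, and within replicate 3 it was 0.111 with 61 genes higher. Over all genes tested the medians were 0.002, 0.001 and 0.001. Only 20 members (25.6%, against 21.7% of all genes) were higher in siDDX5 cells within all 3 numbers, and 3 (3.85%, against 21.1%) were lower in all 3, namely MRPL24, MRPS6 and MRPS14.

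**Figure D5:**
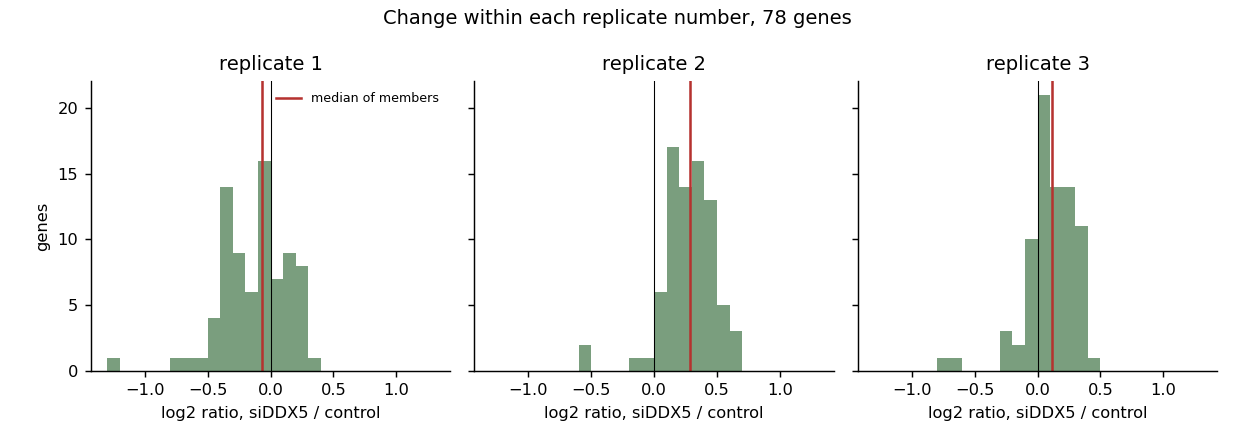
Histograms of the log2 ratio of siDDX5 to control CPM of the 78 genes within replicates 1, 2 and 3, with the median of the genes in red. The median moves from -0.065 in replicate 1 to 0.284 in replicate 2 and 0.111 in replicate 3. MRPL24 and MRPS6 have the lowest ratios in each panel, with MRPS12 (-0.64) close to MRPS6 (-0.76) in replicate 1.

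The siDDX5 library of replicate 2 stood apart. It had the highest level of all 6 libraries for 64 of the 78 genes, and the highest of its group for 72. Its median deviation from the siDDX5 mean over the members was 0.226 on the log2 scale, against -0.006 over all genes. Without this library the median log2 fold change of the members was -0.016, with 34 of the 78 above 0. The positive median over all 6 libraries was thus not kept without it. Within replicate 3, which does not hold this library, the median log2 ratio was 0.111 with 61 genes higher. Without control replicate 3, in which 47 members had their lowest control level, the median log2 fold change was 0.041 with 49 genes above 0. MRPL24 and MRPS6 were highest, not lowest, in siDDX5 replicate 2 among the libraries of that group.

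Base composition moved with these deviations. In control replicate 1 the deviation of the members from the control mean had a Pearson correlation of 0.72 with the G and C content of their transcripts, and in siDDX5 replicate 2 it was 0.55. In the other 4 libraries it lay between -0.54 and -0.27. Each deviation is from the mean of the library's own group, so the deviations of a gene cancel within a group. The correlations of a group are therefore not independent of each other. These correlations are across 78 genes that share a library. Across the members the log2 fold change had a correlation of -0.28 with G and C content (Spearman's rho -0.39), against -0.14 (rho -0.16) over 15192 genes tested. When the trend with G and C content was removed in each library, the median of the members was 0.155 with 68 genes above 0, and 0.14 with 66 above 0 when the block was added. Which part of the deviation of siDDX5 replicate 2 comes from composition was not tested.

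Among members with a known special part, no difference passed the test. MRPL12 and MRPL11 form the stalk that recruits translation factors. MRPL12 had 51.6, 38.6 and 32.99 CPM in the control, against 39.6, 53.8 and 36.5 CPM in the siDDX5 libraries, a log2 difference of 0.08 (SE 0.19, adjusted p = 0.918 in edgeR). MRPL11 had 0.15 (SE 0.19, edgeR adjusted p = 0.805). MRPL3, a core protein of the large subunit, had 0.09 (SE 0.13, edgeR adjusted p = 0.837), and MRPL58, which releases peptides from stalled ribosomes, had -0.03 (SE 0.18, edgeR adjusted p = 0.971). The groups overlapped in all 4 genes.

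MRPS18A, MRPS18B and MRPS18C are 3 related genes, of which only MRPS18C was counted among those with a bacterial counterpart, since the proteins of the others hold other places in the ribosome. Their mean levels over the 3 control libraries were 31.1 ± 2.82, 71.3 ± 4.54 and 40.7 ± 2.51 TPM (SD, n = 3 each). In siDDX5 cells they were 32.5 ± 1.07, 68.8 ± 1.73 and 37.9 ± 4.78 TPM. The log2 fold changes were 0.04 (SE 0.14), 0.03 (SE 0.13) and 0.06 (SE 0.16), with edgeR adjusted p values of 0.946, 0.957 and 0.928. MRPS18B lies in the MHC region, and 10% of its counts were on 30 transcripts of haplotype and patch copies. Such copies held 50% of the counts of MRPS12 and 99.9% of those of MRPL45, so the copies were joined to their genes. MRPS30, the large-subunit protein with a small-subunit name, had a log2 fold change of 0.08 (SE 0.12, adjusted p = 0.835 in edgeR).

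Transcript usage, the division of a gene's counts among its transcripts, was tested in the 65 members with at least 2 transcripts that passed the filter. At an adjusted p under 0.05, 0 of them were called by edgeR's diffSpliceDGE (Simes p for each gene), against 1.57% of the 10688 genes tested, and 0 with the block, against 1.19%. At an unadjusted p under 0.05 there was 1, MRPS18A (edgeR adjusted p = 0.408), which is 1.54% of the members tested against 5.22% of all genes. In MRPS22, chosen after its values were seen, the protein-coding ENST00000310776.8 held 64.7% ± 0.0307 of the counts in control and 70.9% ± 1.56 in siDDX5 cells (SD, n = 3 each). ENST00000498505.5, annotated for nonsense-mediated decay, held 16.7% ± 0.895 and 13.9% ± 0.712 in the same gene. Its adjusted p was 1 in edgeR, and 0.75 with the block, and among the alternatives run it passed only without siDDX5 replicate 3.

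Of the 5 mitochondrial ribosomal proteins with other names, 0 passed in either edgeR fit or in DESeq2, and 0 had an unadjusted edgeR p under 0.05. DAP3, a GTP-binding protein of the small subunit, had 67.9, 65.8 and 62.4 CPM in the control, against 72.05, 84.5 and 72.1 CPM in the siDDX5 libraries. These groups did not overlap, and the log2 fold change was 0.22 (SE 0.11, adjusted p = 0.476 in edgeR). For CHCHD1 it was 0.36 (SE 0.18, edgeR adjusted p = 0.493), for AURKAIP1 0.09, for GADD45GIP1 0.01 and for PTCD3 -0.10.

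The same pathway was followed into its other parts with lists written from general knowledge. Of 26 factors for assembly of the mitochondrial ribosome, 18 had values above 0, with a median log2 fold change of 0.029. Here 0 passed in either edgeR fit or in DESeq2, and at an unadjusted edgeR p under 0.05 there were 2 higher and 1 lower, near the 5.29% and 6% of all genes. They ran from MRM1, a methyltransferase for the large ribosomal RNA (-0.40, SE 0.17, edgeR adjusted p = 0.42), to MRM3, another such enzyme (0.44, SE 0.19, edgeR adjusted p = 0.425). Of 15 translation and messenger RNA factors, 10 were above 0 with a median of 0.088, and 0 passed in either edgeR fit or in DESeq2 (1 higher at an unadjusted edgeR p under 0.05, against 5.29% of all genes). The initiation factor gene MTIF3 was lowest (-0.28, SE 0.13) and LRPPRC, which stabilises mitochondrial messenger RNA, highest (0.30, SE 0.12). Of 22 genes for mitochondrial aminoacyl-tRNA synthesis 21 were tested, of which 12 were above 0, with a median of 0.005. Of the 21, 0 passed in either edgeR fit or in DESeq2 (2 higher at an unadjusted edgeR p under 0.05, against 5.29% of all genes). They ran from TARS2, the threonine enzyme (-0.26, SE 0.15), to MARS2, the methionine enzyme (0.51, SE 0.16, edgeR adjusted p = 0.274).

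Genes for transcription and replication of mitochondrial DNA included the only members of these lists that passed with the block, both higher. Of 9 such genes, 6 were above 0, with a median log2 fold change of 0.202. Of the 9, 0 passed in edgeR without the block, 2 with it (against 2.48% of all genes) and 1, TFAM, in DESeq2 (against 2.15%). TFAM, which packages mitochondrial DNA and starts its transcription, was at 84.4, 88.6 and 92.5 CPM in control replicates 1, 2 and 3 and at 123.9, 129.9 and 123.1 CPM in siDDX5 replicates 1, 2 and 3. The groups were well apart, at a log2 difference of 0.50 (SE 0.10, adjusted p = 0.0773 in edgeR, and 0.0174 with the block). It was 0.48 to 0.54 with libraries left out and 0.34 to 0.51 in the other alternatives. Over all fits run, the adjusted p of TFAM went from 0.000656 (DESeq2) to 0.516. TWNK, the mitochondrial DNA helicase, was at 45.3, 73.3 and 44.6 CPM in the control, against 67.9, 98.6 and 68.7 CPM in the siDDX5 libraries. Control replicate 2 lay above siDDX5 replicates 1 and 3, so the groups overlapped, and the log2 fold change was 0.53 (SE 0.22, adjusted p = 0.402 in edgeR, and 0.0151 with the block). It was 0.81 without control replicate 2 and 0.33 without siDDX5 replicate 2, with edgeR adjusted p of 0.183 and 0.702.

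The messages that the mitochondrial ribosome translates were also measured. Of 15 mitochondrially encoded RNAs listed, 13 were tested, all of them messenger RNAs. Of the 13, 11 (84.6%) were above 0, with a median log2 fold change of 0.077. Here 0 passed in either edgeR fit or in DESeq2, and 0 had an unadjusted edgeR p under 0.05. They ran from MT-ND4L (-0.10, SE 0.12) to MT-ND1 (0.31, SE 0.20, edgeR adjusted p = 0.594). MT-ND1 was at 2466, 3062 and 2362 CPM in the control, against 2746, 4356 and 2685 CPM in the siDDX5 libraries, so siDDX5 replicate 2 was highest here as well. Without that library the log2 fold change of MT-ND1 was 0.05, and that of MT-ND4L ran from -0.15 to -0.01 with a library left out. Among 10 regulators of mitochondrial biogenesis, 8 (80%) were above 0, with a median log2 fold change of 0.111. GABPB1, a subunit of an ETS-family factor, was highest (0.29, SE 0.12, edgeR adjusted p = 0.391) and PPRC1, a coactivator, lowest (-0.04, SE 0.14). Of the 10, 0 passed in either edgeR fit or in DESeq2, and 1 was higher at an unadjusted edgeR p under 0.05, against 5.29% of all genes.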

How the data were processed

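RNA-seq libraries (TruSeq Stranded mRNA) were made from 3 control and 3 siDDX5 samples. The deposited tables give, per the file headers, an estimated count, a TPM value and transcript lengths for each transcript. The tools named per the submitters' processing notes include kallisto 0.46.0 and cutadapt 1.11, with the build GRCh38. Of 188753 transcripts, 169797 were joined to GENCODE 29 genes by identifier and 15320 copies by symbol, and 3636 were left out. The joined transcripts held 99.26% to 99.32% of the counts in each library. Counts and TPM were summed per gene and counts rounded.

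Genes were tested with edgeR 4.0.16 (quasi-likelihood, TMM, filterByExpr, Benjamini-Hochberg, threshold 0.05) in R 4.3.3, with DESeq2 1.42.0, limma 3.58.1, the replicate block, a correction for G and C content, other filters, length-scaled counts and each library left out as alternatives. Same-numbered libraries deviated together (correlations of 0.206, 0.267 and 0.564 over 15204 genes), so the titles' numbers were taken as pairs in the block. The titles give only replicate numbers, and the pairing is inferred. Tested on simulated counts with 200 genes changed by 1 on the log2 scale, edgeR recovered 97.5% with 9 false calls among 15219 genes. With simulated replicate effects it recovered 57%, and 96.5% with the block. With a simulated trend with G and C content it recovered 0% without the correction for that content and 97.5% with it. The size of that simulated trend was fixed and not taken from these libraries. The main fit and the fit with the block alone carry no such correction. The changed genes were drawn from those with a mean of at least 200 counts, and smaller changes were not simulated. Same-numbered libraries shared each simulated replicate effect in full, unlike the partial correlations above.

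Genes were named where they passed with or without the block, had the 6 highest or lowest fold changes or the 4 highest or lowest TPM, or are members with a known special part. In each further list the members that passed, or else the highest and lowest, were named. The members and lists were chosen with earlier results of these data known.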

Additional observations from a re-analysis of the deposited data

How the results depend on the processing

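Among all genes tested, edgeR called 26, against 327 with DESeq2, 1 with limma-trend at a TPM pseudocount of 1 and 1 at a pseudocount of 0.1, 129 with no filter, 2 with length-scaled counts, 377 with the replicate block and 533 with the replicate block and G and C correction. Leaving out 1 library gave 0 to 16, with 0 without control replicate 1 or siDDX5 replicate 1, where 1242 and 2036 genes had an unadjusted p under 0.05. DESeq2 was not run on these. Of the 78 members, where edgeR called 0, DESeq2 called 2, no filter 1, the replicate block 2, and the block with G and C correction 2, all from MRPL24 and MRPS6. With the block, leaving out both libraries of replicate 1, 2 or 3, an alternative chosen after seeing the data, gave 6, 3 and 1, where 6.73%, 7.92% and 1.41% of all genes were called. The 6 were MRPL24 and MRPS6, lower, and MRPL33, MRPL47, MRPS23 and MRPS7, higher. The 3 added MRPL57, lower (-0.43), and the 1 was MRPL24. MRPL24 kept its direction in every alternative (-1.07 to -0.67 with libraries left out, -0.88 to -0.75 otherwise), as did MRPS6 (-0.75 to -0.64 and -0.78 to -0.67), with adjusted p from 1.13e-12 to 0.372 and from 3.7e-05 to 0.298. The median of the members ran from -0.016 to 0.209 with libraries left out. Members called for transcript usage were 0 to 1 with a library left out. DDX5 had -1.44 (adjusted p 0.0856) and -1.44 (adjusted p 0.0936) with limma and -1.37 (adjusted p 0.0666) with length-scaled counts in edgeR. With a library left out it had -1.54 to -1.3. There the edgeR adjusted p was 0.0916, 0.0582 and 0.0587 without control replicate 1, siDDX5 replicate 1 and siDDX5 replicate 2. The cause was not tested.

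These genes, called in no fit apart from MRPL57 as given above, changed sign. With limma-trend the log2 fold change was -0.03 for GADD45GIP1, -0.05 for MRPS18B, -0.10 and -0.11 for MRPS18C and 0.01 for PPRC1. With length-scaled counts it was 0.01 for MRPS11, -0.04 for MRPS18C and 0.04 for PPRC1. With the block it was -0.01 for GADD45GIP1. With G and C correction it was 0.01 for MRPL28, with and without the block, and 0.00 for MRPL58. With a library left out the values ran from -0.11 to 0.24 for AURKAIP1, -0.20 to 0.19 for GADD45GIP1, -0.09 to 0.28 for MRPL11, -0.11 to 0.28 for MRPL12, -0.18 to 0.03 for MRPL28, -0.02 to 0.17 for MRPL3, -0.01 to 0.25 for MRPL51, -0.38 to 0.09 for MRPL57, -0.22 to 0.07 for MRPL58, -0.21 to 0.01 for MRPS11, -0.28 to 0.29 for MRPS12, -0.04 to 0.13 for MRPS18A, -0.09 to 0.15 for MRPS18B, -0.11 to 0.14 for MRPS18C, -0.15 to 0.39 for MRPS26, -0.01 to 0.16 for MRPS30 and -0.14 to 0.10 for PPRC1.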
